A study of Rattus norvegicus with 10 samples.

Results

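The heat shock proteins and their cochaperones described here were fixed by name as 9 genes: Hspa8, Hspb1, Hsph1, Dnajb1, Dnaja1, Hsp90aa1, Hspe1, Hspd1 and Bag3. Their members are the probe sets that the platform's gene table gives to a single one of these genes, which came to 10 of the 31042 probe sets tested. These 10 cover 7 of the 9 genes. Hspa8 and Hsp90aa1 have 0 probe sets of their own, because the 3 that list them also list another gene. The arrays measured the livers of 10 male rats aged 13 weeks, of no named strain. The seasoned group (5 livers, titled N-group with animal numbers 1, 4, 7, 10 and 13) were given feed made up to 30 wt% with instant noodle for 30 days, in which fat supplied 26% of the energy. The control group (5 livers, titled C-group, animals 2, 5, 8, 11 and 14) were given the same feed with the seasonings omitted. All animals were pair-fed at about 60 g of diet per kg body weight and day, had water at will and were kept under 12 h of light alternating with 12 h of darkness. The RNA extraction text speaks of brain tissue, although every sample carries the label liver. The 5 measured hepatocyte markers had mean log2 signals of 12.16 to 14.34, and the 6 measured brain markers lay between 5.74 and 7.26.

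Heat shock proteins are molecular chaperones. HSP70 proteins such as Hspa8 bind exposed hydrophobic stretches of client proteins in a cycle driven by ATP. J-domain proteins such as Dnajb1 and Dnaja1 deliver clients and stimulate ATP hydrolysis, and nucleotide exchange factors such as Hsph1 and Bag3 release them. Hsp90aa1 matures kinases and steroid receptors, Hspb1 is a small heat shock protein that holds unfolded clients without ATP, and Hspd1 and Hspe1 form the folding chamber of the mitochondrial matrix. Under heat or other protein damage the factor HSF1 binds heat shock elements, inverted repeats of the letters GAA, and raises their transcription. In liver, some of these genes follow the daily rhythm of body temperature.

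The promoters are shown first because the heat shock element is the feature that these genes are known to share. RefSeq promoter windows on GRCr8, 250 bases before to 50 bases after the gene start, were matched for 8 of the 9 genes, and Hsp90aa1 is the missing entry. The following 4 windows, read 5′ to 3′ on the strand of the gene, were chosen as those of the HSP110 and J-domain members and the promoter that the chaperonin pair shares, and capitals mark every GAANNTTC or TTCNNGAA.
Hsph1, chr12:10427118-10427417, plus strand: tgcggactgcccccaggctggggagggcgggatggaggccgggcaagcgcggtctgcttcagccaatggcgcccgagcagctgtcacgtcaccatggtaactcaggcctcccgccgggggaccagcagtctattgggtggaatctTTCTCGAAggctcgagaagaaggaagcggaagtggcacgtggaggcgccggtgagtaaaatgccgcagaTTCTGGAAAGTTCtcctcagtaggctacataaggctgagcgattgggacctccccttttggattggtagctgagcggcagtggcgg
Dnajb1, chr19:41431092-41431391, minus strand: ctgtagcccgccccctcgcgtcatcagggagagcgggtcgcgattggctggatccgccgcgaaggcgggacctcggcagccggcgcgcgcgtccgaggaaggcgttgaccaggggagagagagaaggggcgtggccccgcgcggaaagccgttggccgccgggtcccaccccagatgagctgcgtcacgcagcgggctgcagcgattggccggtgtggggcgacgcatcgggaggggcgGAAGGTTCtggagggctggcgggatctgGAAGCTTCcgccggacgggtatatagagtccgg
Dnaja1, chr5:60638154-60638453, plus strand: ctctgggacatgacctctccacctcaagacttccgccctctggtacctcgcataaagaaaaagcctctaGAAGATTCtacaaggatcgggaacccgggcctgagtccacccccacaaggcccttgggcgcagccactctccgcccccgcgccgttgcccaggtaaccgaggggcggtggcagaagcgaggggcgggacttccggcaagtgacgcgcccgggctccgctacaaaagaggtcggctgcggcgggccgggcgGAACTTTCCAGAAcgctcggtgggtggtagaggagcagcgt
Hspe1, chr9:64084077-64084376, plus strand: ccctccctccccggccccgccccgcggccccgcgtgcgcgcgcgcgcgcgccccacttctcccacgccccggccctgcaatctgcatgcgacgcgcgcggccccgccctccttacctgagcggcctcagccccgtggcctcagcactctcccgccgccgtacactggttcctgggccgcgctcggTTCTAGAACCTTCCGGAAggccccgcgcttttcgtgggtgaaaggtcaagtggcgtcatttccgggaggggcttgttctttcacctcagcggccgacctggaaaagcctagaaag

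Both 8-letter motifs read the same on either strand, and they can overlap one another to form runs of 3 units, written GAANNTTCNNGAA or, on the opposite strand, TTCNNGAANNTTC. GAANNTTC occurred in all 8 member windows, against 8.59% of the 33469 RefSeq windows of the same length. TTCNNGAA occurred in 5 of the 8, against 8.77% of all windows. A run of 3 units in either order occurred in Hspa8, Hsph1, Dnaja1, Hspe1 and Hspd1, against 0.798% of all windows. Hspb1, Dnajb1 and Bag3 had only pairs of units in these windows. In Hsph1 the 3-unit run began 36 bases before the gene start. In Dnaja1 it began 9 bases after the first base of the gene.

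The windows of Hspe1 and Hspd1 are not independent. The genes lie head to head on opposite strands of chromosome 9 with 289 bases between their starts, and their windows share 211 bases. All 5 motif matches counted for Hspe1 are the same genomic bases as the 5 counted for Hspd1. They began at most 65 bases before the Hspe1 start, and at most 242 bases before that of Hspd1. A match is a description of these letters and not a measured binding site, and binding was not measured in these livers.

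**Figure D1:**
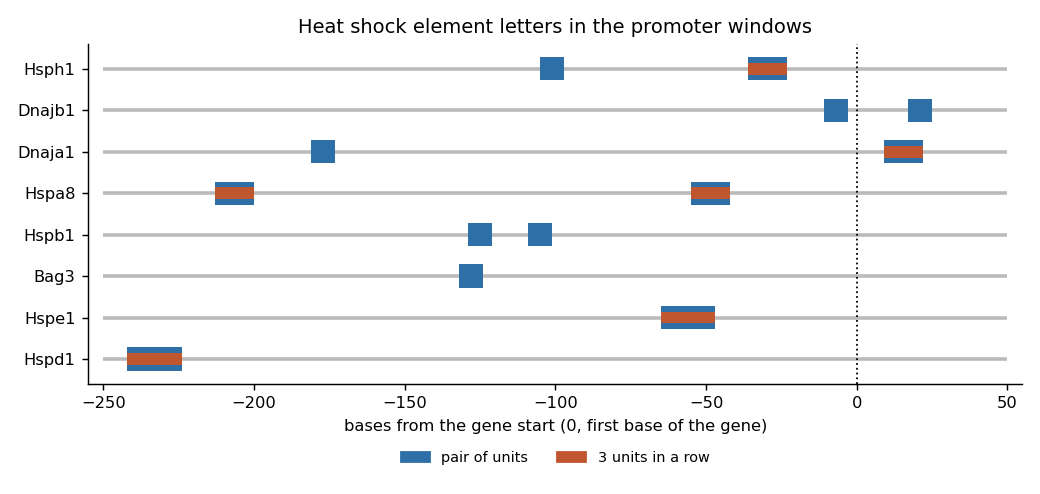
Position of heat shock element letters in the promoter windows of 8 members; the x axis is the distance in bases from the gene start and each row is a gene. Blue boxes are pairs of units and orange boxes are runs of 3, which 5 of the 8 genes hold.

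No member was called as different between the diets. By limma, with Benjamini-Hochberg adjustment across the 31042 probe sets, 0 of the 10 member probe sets were called at an adjusted p under 0.05, as were 0% of all probe sets. At an unadjusted p under 0.05 there were again 0 of 10 members, against 4.48% of all probe sets. When the varying probe sets were fitted alone, 12.9% of them had such a p. The exact permutation test over all assignments of the livers to diets gave member p-values of 0.0794 and above (two-sided, smallest possible p 0.00794), so it also called 0. In 0 of 10 members were the diets free of overlap, against 0.770% of all probe sets and 2.99% of the varying ones. The smallest p among members belonged to Hspe1, the HSP10 lid of the mitochondrial chaperonin. In whole liver, fewer cells of a type and less RNA per cell cannot be told apart.

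These calls leave a bounded range for each member. The 95% intervals of the log2 difference (seasoned minus control, 5 livers per group) lay between -0.51 and 0.66 over all 10 member probe sets. In linear terms these outer bounds are 0.703-fold, from Dnajb1, and 1.58-fold, from Hsph1. The tightest interval was that of Dnaja1 probe set 1398819_at, from -0.17 to 0.13. Of the 10 differences, 6 were above 0 and 4 below, with a median of 0.06, beside a median of 0.0079 over the 4050 varying probe sets, of which 53.3% were above 0. Their median absolute difference was 0.093, and that of all varying probe sets was 0.092.

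**Figure D2:**
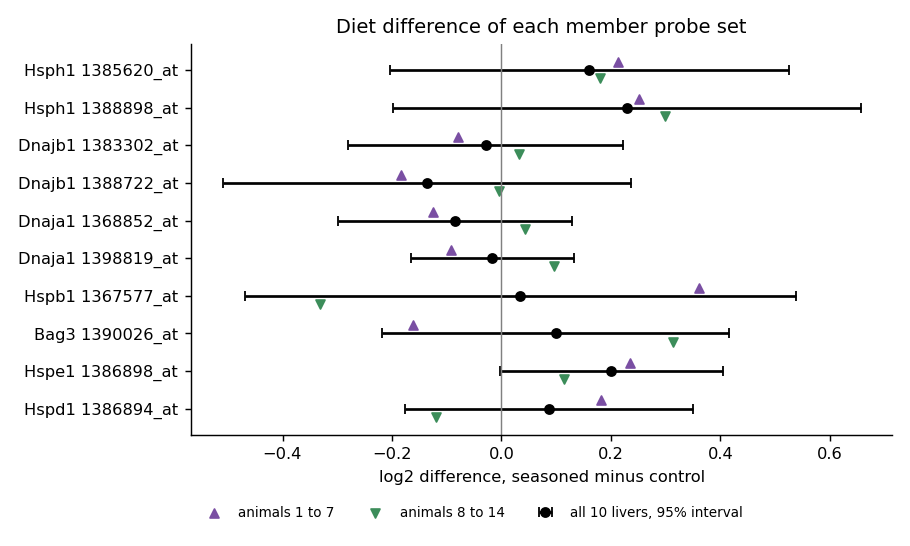
Log2 difference between the diets (x axis, seasoned minus control) for each member probe set (y axis), with the 95% interval from limma over 5 livers per group. Triangles are the plain differences of means within animals 1 to 7 and within animals 8 to 14; all 10 intervals include 0.

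Each of the 10 member probe sets belonged to the part of the table that varies between livers. Varying means here an SD over the 10 arrays above 0.01 log2 units. Only 13.0% of all probe sets met this, and 35.6% of the 9853 probe sets at least as bright on average as the dimmest member. The deposited values of the remaining probe sets are nearly the same in every liver, so that a comparison of diets is informative only for the varying ones. The members' SDs over the 10 livers had a median of 0.20, close to the 0.19 of all varying probe sets. When limma was fitted to the 4050 varying probe sets alone, 0.321% were called and again 0 members, with a smallest member adjusted p of 0.396. With the animal-number sets described below as a block, 0.543% of the varying probe sets were called and 0 members.

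Hsph1, an HSP110 protein that acts as nucleotide exchange factor for HSP70, had the largest positive difference among the members. On probe set 1388898_at the seasoned livers read 8.61, 8.32, 8.39, 8.25 and 9.13 log2 units in animals 1, 4, 7, 10 and 13. The controls read 8.24, 8.14, 8.35, 8.13 and 8.70 in animals 2, 5, 8, 11 and 14. The last numbered animal of each diet was the highest of its group, and the groups overlapped. The log2 difference was 0.23 ± 0.19 (SE, 5 livers per group; adjusted p = 0.9997 by limma), or 1.17-fold with a 95% interval from 0.872 to 1.58. Without seasoned animal 13 the difference was 0.08, and without control animal 14 it was 0.33. The titles number seasoned and control animals in neighbouring runs (1 and 2, 4 and 5, 7 and 8, 10 and 11, 13 and 14), which no label calls pairs. Within these neighbours the seasoned liver was higher in 5 of 5, by 0.37, 0.18, 0.04, 0.12 and 0.43. With the neighbours as a block, a fit chosen after seeing the data, the difference was 0.23 ± 0.07 (unadjusted p = 0.0273, adjusted p = 0.894 by limma). In that fit 1 of the 10 member probe sets had an unadjusted p under 0.05, against 13.5% of the varying probe sets. On the varying probe sets alone the same block called 0 members and 0.0741% of probe sets after adjustment. The second Hsph1 probe set, 1385620_at, ranged from 7.03 to 7.88 and differed by 0.16 ± 0.16, with the seasoned liver higher in 4 of the 5 neighbours. Both probe sets ordered the livers alike, with a Pearson r of 0.989 and a Spearman rho of 0.964 over the 10 livers, as a description of 2 readings of the same RNA.

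Dnajb1, an HSP40 protein induced in the heat shock response, had lower means with the seasoned diet on both of its probe sets. Probe set 1388722_at read 8.11, 8.01, 8.34, 8.24 and 8.67 in seasoned animals 1 to 13. It read 8.11, 8.56, 8.51, 8.13 and 8.73 in control animals 2 to 14. Animals 13 and 14 were again the highest of their diets, and the groups overlapped over most of their range. The log2 difference was -0.14 ± 0.16 (adjusted p = 0.9997 by limma, 5 livers per group). It lay between -0.23, without seasoned animal 13, and -0.06, without control animal 14, when single livers were left out. With array position as a covariate it was -0.24 ± 0.14. It was -0.10 ± 0.13 with animal number as a covariate and -0.09 ± 0.16 with the animal-number sets as a block. Probe set 1383302_at ranged from 7.43 in control animal 11 to 7.999 in control animal 14 and differed by -0.03 ± 0.11.

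Dnaja1, a J-domain partner of HSP70 in protein folding and import, was the least variable member. On probe set 1398819_at the seasoned livers read 10.54, 10.52, 10.64, 10.68 and 10.82 in order of animal number. The controls read 10.66, 10.65, 10.74, 10.52 and 10.72. All 10 livers lay between 10.52 and 10.82, the groups overlapped, and the difference was -0.02 ± 0.07. Probe set 1368852_at read 9.73 to 10.22 with the seasoned diet and 9.88 to 10.10 in controls, with a difference of -0.08 ± 0.09. With single livers left out, this difference lay between -0.16, without seasoned animal 13, and -0.04, without seasoned animal 4. It was -0.15 ± 0.06 without animals 13 and 14 and -0.04 ± 0.06 with the animal-number sets as a block. As covariates, array position gave -0.15 ± 0.07 and animal number, with which it rises within each diet, gave -0.06 ± 0.07. The difference was not called in any of these fits.

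Bag3 couples HSP70 to selective autophagy of damaged proteins. Its probe set read 8.25, 8.22, 8.48, 8.22 and 8.65 in the seasoned livers, and 8.35, 8.60, 8.13, 7.93 and 8.31 in the controls. Control animal 11 was the lowest of all livers and seasoned animal 13 the highest. The difference was 0.10 ± 0.14 and had opposite signs in the animal-number sets, at -0.16 within animals 1 to 7 and 0.31 within animals 8 to 14. These sets are not groups of the labels: they were found earlier in these data as the parting of the animal numbers that separates the most genes.

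Hspb1 was the dimmest member, with a mean of 7.003, above 68.3% of all probe sets. It read 7.80, 7.01, 6.78, 6.58 and 6.93 in seasoned animals 1, 4, 7, 10 and 13. In the controls it read 6.68, 6.99, 7.13, 6.93 and 7.20. Seasoned animal 1 stood above all other livers, and seasoned animal 10 was the lowest of all. The group means were 7.02 ± 0.46 (SD, n = 5) and 6.99 ± 0.20 (SD, n = 5), a difference of 0.03 ± 0.22 (SE). This difference was -0.16 without seasoned animal 1 and -0.04 without control animal 2, and the animal-number sets gave 0.36 for animals 1 to 7 and -0.33 for animals 8 to 14.

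**Figure D3:**
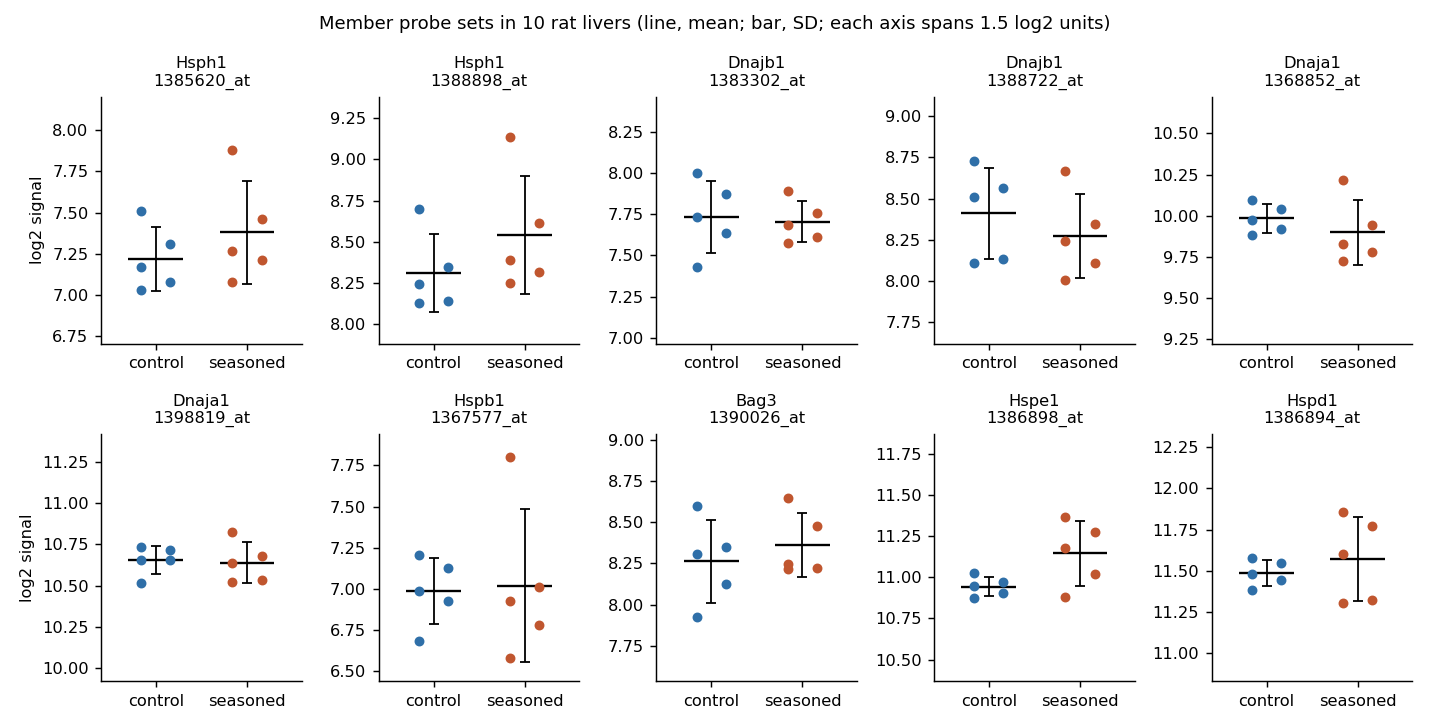
Log2 signal (y axis) of each member probe set in the 5 control and 5 seasoned livers; points are livers, lines are group means and bars are SDs, and every panel spans the same number of log2 units. The diets overlap in all 10 panels, and in the Hspe1 panel 3 seasoned livers lie above all controls.

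Of the mitochondrial chaperonin pair, Hspe1 came nearest to a difference among all members and Hspd1 did not. Hspe1 read 11.37, 11.02, 11.28, 10.88 and 11.18 in the seasoned livers and 11.03, 10.95, 10.87, 10.97 and 10.90 in the controls. In 3 seasoned livers (animals 1, 7 and 13) it exceeded every control, while animal 4 lay just under the highest control and animal 10 among the lowest. The log2 difference was 0.20 ± 0.09 (adjusted p = 0.9997 by limma, unadjusted p = 0.0532; exact permutation p = 0.0794, 5 livers per group), or 1.15-fold with an interval from 0.998 to 1.32. Animals 1 to 7 taken alone gave 0.23 and animals 8 to 14 gave 0.11, and omitting single livers in turn gave 0.14 to 0.27.

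Hspd1, the HSP60 ring that Hspe1 caps, read 11.86, 11.60, 11.77, 11.32 and 11.31 in the seasoned livers. The controls read 11.58, 11.54, 11.48, 11.44 and 11.38. The seasoned livers were more spread (SD 0.25) than the controls (SD 0.080), and the diets differed by 0.09 ± 0.12 (unadjusted p = 0.473 by limma). Leaving out single livers moved this difference between 0.0156, without seasoned animal 1, and 0.153, without seasoned animal 13. It was 0.03 ± 0.07 with the animal-number sets as a block and 0.06 ± 0.08 with animal number as a covariate. With array position as a covariate it was 0.18 ± 0.08, and it was not called in any of these fits. Array position rises with animal number within each diet, so these covariates are not separate checks. The first animal-number set had a difference of 0.18 and the second one of -0.12. Of the promoter bases printed above for Hspe1, 211 also lie in the window of Hspd1. Over the 10 livers, centred on the mean of their diet, Hspe1 and Hspd1 had a Pearson r of 0.715 (exact within-diet permutation p = 0.138, adjusted p = 0.457 over 21 pairs of members) and a Spearman rho of 0.600 (exact permutation p = 0.109, adjusted p = 0.508). The r was 0.327 without seasoned animals 1 and 10, the 2 farthest from the median Hspe1 value, and 0.938 without animals 13 and 14, so its size depends on which livers are included.

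Animal number separated Hspd1 and a Dnaja1 probe set without overlap, which diet did not. All 5 livers of animals 8 to 14 had Hspd1 between 11.31 and 11.48, under all 5 of animals 1 to 7 at 11.54 to 11.86. The reverse held for Dnaja1 probe set 1368852_at, with 9.94 to 10.22 in animals 8 to 14 and 9.73 to 9.92 in animals 1 to 7. These were 2 of the 10 member probe sets. Among varying probe sets, 16.1% were lower and 1.51% higher in animals 8 to 14 without overlap. As the sets were chosen on these data, no test is given, and Hspd1 shares its direction with many other genes. Among these were 3 of the 5 Kupffer cell and macrophage markers, Cd163, C1qa and C1qc. The summed log2 signal of all 5 was 39.93 to 40.80 in animals 1 to 7 and 38.04 to 39.52 in animals 8 to 14, without overlap. Their part in the Hspd1 values was not tested. Within each diet the position in the array code rises with animal number, so animal number and array position cannot be told apart.

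**Figure D4:**
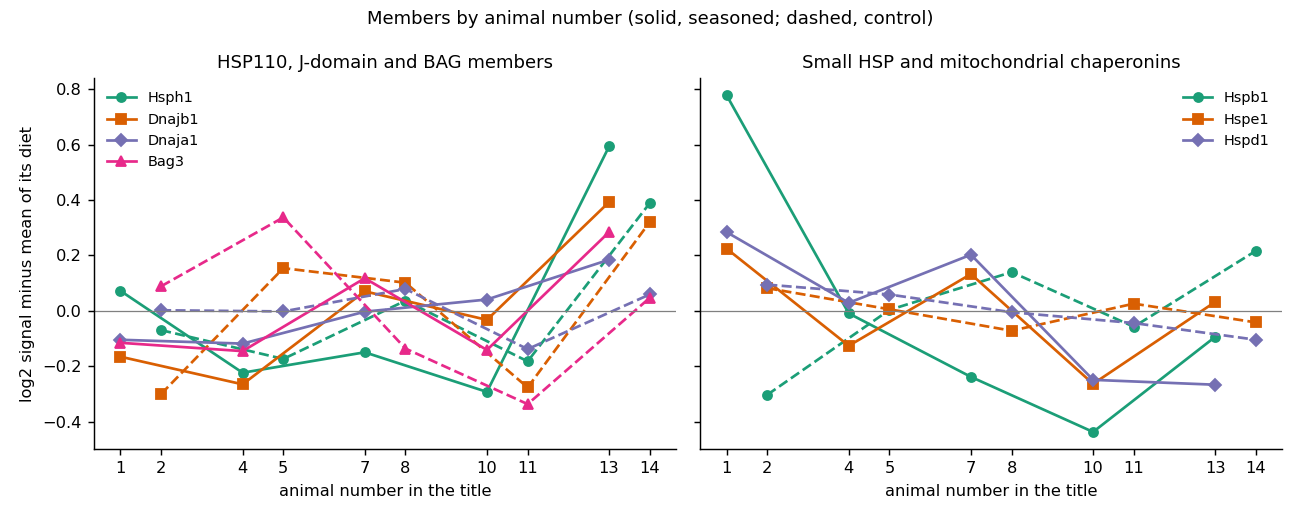
Log2 signal minus the mean of the animal's diet (y axis) against the animal number in the title (x axis), for 1 probe set of each member gene (that with the highest mean); solid lines are seasoned and dashed lines are control livers. Hsph1 and Dnajb1 peak in animals 13 and 14, and Hspd1 is low in animals 8 to 14.

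The last numbered animal of each diet was often the highest for these genes. Seasoned animal 13 held the highest seasoned value in 7 of the 10 member probe sets, beside 19.5% of all varying probe sets. Control animal 14 held the highest control value in 5 of 10, beside 15.6% of varying probe sets. In both animals these included both probe sets of Hsph1 and of Dnajb1, so the 10 are not independent readings. With animals 13 and 14 left out, Hsph1 probe set 1388898_at differed by 0.18 ± 0.09, Hspe1 by 0.18 ± 0.11 and Dnajb1 probe set 1388722_at by -0.15 ± 0.14, and 0 members were called by limma (0 of 31042 probe sets in all).

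The signals of probe sets shared with another gene cannot be given to a member alone. The probe set listed for Hspa8 and Haus8l2 read 11.39, 11.37, 11.34, 11.51 and 12.14 in the seasoned livers and 11.28, 11.30, 11.62, 11.44 and 12.06 in the controls. Animals 13 and 14 were thus the highest of their diets here too. The diets differed by 0.0098 ± 0.20. Of the probe sets listed for both Hsp90aa1 and a pseudogene of it, 1372701_at differed by 0.01 ± 0.12 and 1388850_at by 0.10 ± 0.16.

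No pair of members passed the adjusted test for moving together. Of 21 pairs among the 7 genes, 0 passed an adjusted p of 0.05, and 2 had an unadjusted exact p under it for Pearson's r. Dnajb1 and Dnaja1 had the highest r at 0.820 (exact within-diet permutation p = 0.00576, adjusted p = 0.121), with a rho of 0.600 (exact p = 0.109, adjusted p = 0.508), and an r of 0.858 without seasoned animal 13 and control animal 2. Hsph1 and Dnajb1 had an r of 0.704 (exact permutation p = 0.0334, adjusted p = 0.349) and a rho of 0.5 (exact p = 0.192, adjusted p = 0.575). Without animals 13 and 14, which were also the 2 farthest from the median of Hsph1, this r was 0.0319, so that relation rests on those livers.

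Genes with the most similar course over the 10 livers were sought among 2612 other varying genes. Unlike for the pairs of members above, values here were not centred on the mean of their diet, so differences between the diets enter these correlations. For Hsph1 the most similar was Stip1, the adaptor that joins HSP70 to HSP90, with a Pearson r of 0.920 and a rho of 0.855 over 10 livers. Stip1 read 8.46 in seasoned animal 13 and 8.19 in control animal 14, each the highest of its diet, and differed between the diets by 0.20 ± 0.11. The next for Hsph1 were Dhx29 and Ppil3 (r of 0.897 and 0.893). For Hspe1 they were Psmb5 (r of 0.963), a catalytic proteasome subunit, Rexo2 (0.951) and Nhp2 (0.944). For Hspd1 they were Canx (0.918), a chaperone of the endoplasmic reticulum, Ccl6 (0.917) and Mocs2 (0.916). For Dnajb1 they were Akirin1, Sdhaf1 and Rybp (0.920, 0.913 and 0.887), and for Dnaja1 they were Itprid2, Chchd7 and Lrrc8b (0.916, 0.909 and 0.877). For Bag3 they were Atxn2, Zfp266 and Dpy30 (0.945, 0.918 and 0.912). Hspb1 was most like S100a9 (0.918), a calcium-binding protein of neutrophils, Resp18 (0.885) and Lrrc8c (0.884), with rho values of 0.758, 0.782 and 0.733. No other member was among these nearest 3: the best placed was Dnajb1, at rank 14 for Dnaja1. These are the highest of many correlations, all arrays share whatever set their overall signal, and no p is given.

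Other chaperone genes also gave no called difference. Over 9 lists that hold 86 distinct genes, 81 were measured, with the probe set of highest mean standing for each gene, and 27 were varying (33.3%, against 18.4% of all 14217 genes). By limma 0 of the 81 passed after adjustment. At an unadjusted p under 0.05, 3 had higher and 4 had lower signals in seasoned livers, against 3% and 1.79% of all genes. Of these 7, 3 were near-constant genes (Bag2 higher, St13 and Pfdn2 lower) with differences of 0.00021, -0.00016 and -0.00023, which have no measurable size. Among the 27 varying genes the median difference was 0.05, beside 0.02 over all 2613 varying genes, with 19 above 0 and 8 below, beside 57.3% above 0 over all varying genes.

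Clpx, the unfolding subunit of a mitochondrial matrix protease, had the largest difference of these genes. It read 10.68, 10.82, 10.57, 10.32 and 10.05 in the seasoned livers and 9.81, 9.74, 9.65, 10.25 and 9.62 in the controls. The only overlap came from control animal 11 and seasoned animal 13. The log2 difference was 0.67 ± 0.17 (unadjusted p = 0.0042, adjusted p = 0.766 by limma). The other members of the mitochondrial quality control list stayed within smaller differences, and Hspa9, the matrix HSP70, differed by 0.07 ± 0.07. In that list of 10 measured genes, Clpx alone had an unadjusted p under 0.05, and the median difference was 0.0068. Over the 6 genes of the list that varied, Clpx included, the median was 0.07, beside 0.02 over all varying genes.

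Fkbp4, an HSP90 cochaperone of steroid receptors, read 8.92, 8.35, 8.69, 8.23 and 8.79 with the seasoned diet and 8.33, 7.97, 7.97, 8.23 and 8.21 in controls, a difference of 0.46 ± 0.15 (unadjusted p = 0.0134, adjusted p = 0.871 by limma). In its list of 15 measured HSP90 genes and cochaperones, Fkbp4 was higher and near-constant St13 lower at an unadjusted p under 0.05, and Hsp90ab1, the constitutive HSP90, differed by 0.12 ± 0.14. Tcp1, a subunit of the cytosolic chaperonin TRiC, differed by -0.14 ± 0.06, and Sqstm1, an autophagy receptor, by -0.15 ± 0.05. Neither passed after adjustment. Of 13 measured TRiC and prefoldin genes, 0 were higher and 2 lower at an unadjusted p under 0.05 (Tcp1 and near-constant Pfdn2). Among 15 further J-domain genes the count was 0, with Dnajb11 at 0.16 ± 0.10 and Dnajc3 at 0.12 ± 0.09.

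The deposited values of the stress-inducible HSP70 and the main heat shock factor were nearly the same in every liver. Like those of other near-constant probe sets, they cannot show whether the RNA differed between livers or diets. Hspa1a, whose probe set may also read its near-identical copy Hspa1b, held a signal of 6.21 throughout with hardly any spread, and Hsf1 one of 6.62. Both lay close to the array medians of 6.47 to 6.48. Hsf2 differed by -0.018 ± 0.015. All 6 other small heat shock genes, Cryab and Hspb6 included, and 9 of the 10 further HSP70 genes, Hspa2 and Hspa4l included, were near-constant. Of the 9 exchange factors only Grpel1 varied, so Hspbp1 had no measurable difference, and neither did Clpp of the mitochondrial list.

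**Figure D5:**
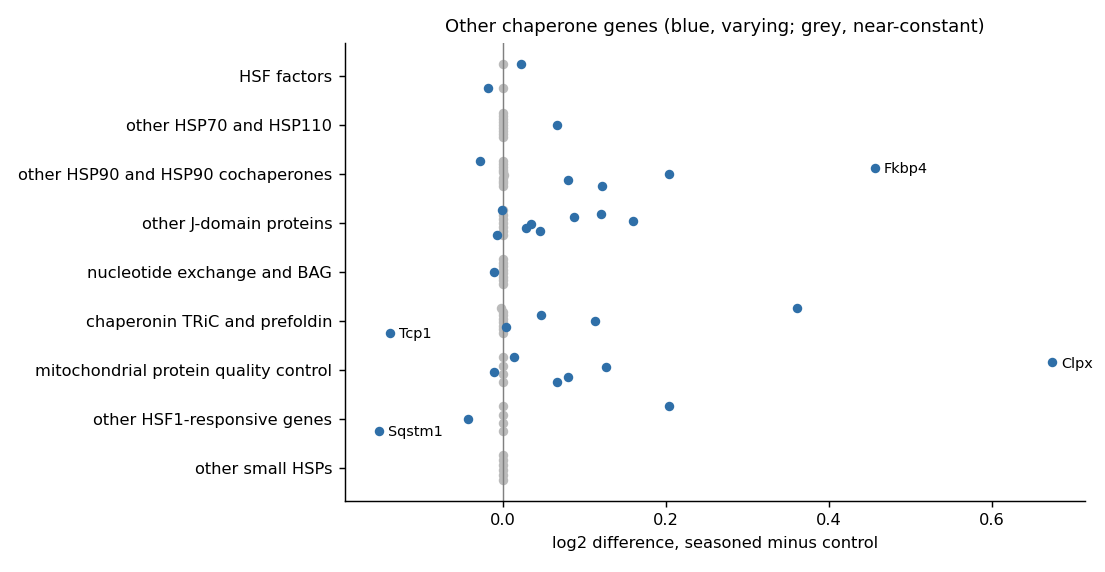
Log2 difference between the diets (x axis, seasoned minus control) of the genes in 9 chaperone lists (y axis; some genes are in several lists); blue points vary between livers and grey points are near-constant. Clpx at 0.67 and Fkbp4 at 0.46 lie farthest right, and names mark varying genes with an unadjusted p under 0.05.

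Genes that track temperature and time of day are given beside the members. Rbm3, an RNA-binding protein induced by cold, read 7.69, 8.16, 7.88, 8.07 and 7.84 in seasoned livers and 8.05, 8.09, 8.21, 8.30 and 8.28 in controls, a difference of -0.26 ± 0.10 (unadjusted p = 0.0263, adjusted p = 0.9997 by limma). Cirbp, its relative, was near-constant at 7.20. Of 13 clock genes, 4 were higher and 5 lower with the seasoned diet at an unadjusted p under 0.05 and 0 passed after adjustment over all probe sets. Dbp, a rhythmic output factor, differed by -2.46 ± 0.46, and Bmal1, a core activator, by 1.14 ± 0.21. For both the diets did not overlap, as in 2.99% of varying probe sets. In the fit on varying probe sets alone, Dbp passed (adjusted p = 0.0477 by limma) and Bmal1 lay just above the threshold (0.0503). With the animal-number sets as a block in that fit, neither passed (adjusted p = 0.0573 for Dbp and 0.0519 for Bmal1 by limma). Nr1d1 and Per2, both clock repressors, differed by -0.96 ± 0.30 and -0.75 ± 0.35. The part of the clock difference in the values of the chaperone genes was not tested. Of 8 immediate early genes 0 had an unadjusted p under 0.05, with Jun at -0.46 ± 0.30 and Fos near-constant at 6.01.

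Among markers of other cell types, the summed log2 signal of 5 Kupffer cell and macrophage markers spanned 38.04 to 40.80 with the seasoned diet and 38.80 to 40.07 in controls. That of 2 erythroid markers spanned 18.52 to 18.88 and 18.22 to 18.80. The sums of the stellate cell, endothelial and cholangiocyte markers also overlapped between the diets. The 4 lymphocyte and 4 skeletal muscle markers were near-constant, at 6.19 to 6.43 and 5.48 to 6.22. By contrast, the sum of the 5 hepatocyte markers did not overlap, at 67.46 to 67.71 with the seasoned diet and 67.14 to 67.43 in controls. Only 1 of these 5 varied, Apoa1, which differed by 0.23 ± 0.07 (adjusted p = 0.850 by limma). Its diets did not overlap, as in 2.99% of varying probe sets. Alb, Ttr, Serpina1 and Fgb were near-constant, so the sum follows Apoa1 alone and cannot show a difference in hepatocyte content.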

How the data were processed

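Per the labels' protocols, cRNA carrying biotin was made from 100 ng of total RNA per liver. The values deposited by the authors are log2 signals, a single one for each probe set on each array. Summary and normalization steps were not given in the sources used here. Values ran from 4.79 to 14.34, and the log base was taken from that range. The depth is unknown, and precision is set by how many arrays there are. The table has 31099 probe sets, from which 57 controls were dropped; the platform table gave 20826 of the rest 1 gene, 436 several and 9780 none. Differences were fitted with limma 3.58.1 (lmFit, eBayes, two-sided, no covariate, no filter) in R 4.3.3 and adjusted over 31042 probe sets; the fit was tested on simulated data. P-values measure the spread between rats, which the titles number separately. The array codes put all seasoned livers in row A and all controls in row B, so row and diet cannot be told apart.

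The members and lists were chosen with earlier results of these data known. Named were all member probe sets, the 2 genes of smallest p in each list, the 3 genes most like each member by Pearson r, and Bmal1, Dbp, Nr1d1, Per2, Cirbp and Rbm3. Hspa9, Hsp90ab1, Hspa1a and Grpel1 were chosen after their values were seen. Alternatives were a fit on varying probe sets, 1 probe set per gene, a filter on dim probe sets, median centring, repeated quantile normalization, another variance model, exact permutation, animal number, its 2 sets or array position as covariates, and leaving out each liver. Added after seeing the data were the varying fit with the animal-number sets, a block for neighbouring animal numbers in the full and the varying fit, and leaving out animals 13 and 14. Promoter sequences are RefSeq's for GRCr8; the arrays name no genome build.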

Additional observations from a re-analysis of the deposited data

Results flagged for a closer look

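Over 24 varying probe sets in each diet, 48 groups of 5 livers were examined for an animal standing apart, meaning that its distance to the closest other liver was over 0.71 of the range of its group. Chance gives about 1 in 20, or 2.4 here. There were 2, both in control animal 11 and both in clock genes: Bmal1 was high there (ratio 0.8058) and Dbp was low (ratio 0.8336). None of the 10 member probe sets held such a liver in either diet. Control animal 11 read 6.90 for Bmal1, against 6.08 to 6.24 in the other controls, and 7.28 for Dbp, against 9.08 to 9.43. With control animal 11 left out, the difference of Bag3 was 0.0149 and that of Hspe1 0.2074.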

How the results depend on the processing

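The 10 member differences were recomputed in 237 combinations of member and setting. All stayed uncalled (smallest adjusted p by limma 0.242), 227 kept their sign and 10 changed it, in 3 probe sets whose differences were below their SEs. Many of the kept signs were fixed in advance. Settings that change only the probe sets fitted, the variance model, the test or the block for neighbouring animal numbers cannot move a difference. Median centring also left the differences the same. Dnaja1 probe set 1398819_at was at 0.0021 with the block for animals 1 to 7 against 8 to 14, in both the full and the varying fit, and between -0.0629 and 0.0129 with any 1 liver left out. The same omissions gave -0.1047 to 0.0377 for Dnajb1 probe set 1383302_at and -0.1604 to 0.1436 for Hspb1. The cause was not tested. Over all probe sets the count of calls was 0, and it was 13 among varying probe sets alone, where fewer were tested, 22 there with the block, and 3 there with a block for neighbouring animal numbers. With 1 liver left out it ranged from 0 to 10, with 10 only without control animal 11; the cause was not tested. The count of members called was 0 in all 24 settings. The labels give the diets no shared number and state no pairs, so the block for neighbouring animal numbers, added after seeing the data, is not a paired design of the study.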
